A study of Mus musculus with 9 samples.

Results

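The IFI200 family was followed through 4 genes, Ifi202b, Mndal, Ifi203 and Ifi204, in sorted granulocyte-macrophage progenitors (GMPs), the bone marrow cells that give rise to neutrophils and monocytes. All probe sets that the platform annotation assigns to these symbols were taken, which gave 10 of the 45101 probe sets on the array and 4 of the 18193 genes that it names with a probe set of their own. Of the 10 probe sets, 5 carry a single symbol and 5 are shared with other genes. The genes were chosen by their signals on these same arrays, on which Ifi202b was near zero in wild type and high in the other groups, so the signals are described and not tested. RNA came from 9 samples with 1 array each, in 3 groups of 3: Dicer null, Dicer heterozygous deletion and Dicer wild type.

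In every group the donor cells carried Cebpa-Cre and the R26-LSL-Eyfp reporter, and the sorted cells were EYFP-positive. Floxed Dicer1 is named for the donor background. Which groups carried the floxed allele is given here only through their labels of null, heterozygous deletion and wild type. Dicer1 encodes the nuclease that matures microRNAs, and Cre driven from Cebpa acts in cells that enter the myeloid lineage. Fetal livers of embryonic day 13.5 were transplanted into irradiated (8.5 Gy) C57BL/6 recipients aged 6 to 8 weeks, and marrow was taken 6 to 10 weeks later. One fetal liver typically went to more than 1 recipient, and nothing in the labels says which samples share a donor, so a p-value reflects only how much these samples vary, and some of that variation may be technical. The labels give no strain for the donors' floxed, Cre or reporter alleles. A strain difference at this cluster and the Dicer1 genotype therefore cannot be told apart.

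Proteins of this family, also called PYHIN proteins, bind DNA through HIN domains, and most also carry a pyrin domain through which they assemble with partners. They are induced by interferons, and several take part in sensing cytosolic DNA or in nuclear control of transcription and growth. In the mouse the genes sit side by side in a chromosome 1 cluster. Ifi202b encodes p202, which has HIN domains but no pyrin domain and restrains the DNA sensor AIM2. Its transcript level is known to differ between inbred strains and to be low in C57BL/6.

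The labels were checked first. Dicer1 read 115, 101 and 97.2 in null and 169, 201 and 187 in heterozygous cells, against 244, 228 and 223 in wild-type cells, on its brighter probe set (1460571_at). All 12 GMP markers, among them Mpo, Elane, Ctsg and Kit, passed the filter on dim probe sets, and their summed signal was 30402 to 32461 in null, 29380 to 34411 in heterozygous and 29546 to 33054 in wild-type samples. Singly they were not all alike. Against wild type, limma called 2 higher and 1 lower in null cells, beside 6.6% and 6.92% of all genes, and 0 in heterozygous cells. Fcgr2b averaged 1829 in null and 1173 in wild-type cells, Fcgr3 1557 and 1204, and Csf3r 198 and 261. Array medians lay between 12.4 and 16.1. Every sample is labelled female, but a Xist probe set (1436936_s_at) read 2610 on wild-type replicate 2 and 16.4 to 30.2 on the other 8 arrays, and the Y-linked Eif2s3y (1417210_at) read 1.13 there and 622 to 859 elsewhere. One wild-type array thus differs from the other 8 in this respect, and several results that lean on it are also given without it.

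The stretches just before the start sites are shown because most of them hold a motif through which interferons drive transcription. RefSeq promoter windows (GRCm38.p6, the C57BL/6J reference, 250 bases before to 50 after the start) exist here for 12 of 13 family genes looked for and for 3 of the 4 members; Ifi204 has no entry. Capitals mark the core of the interferon-stimulated response element (ISRE), searched on both strands as GAAA, any 2 bases and GAAA again. The lines give the match with 10 bases on either side, read on the gene's strand.
Mndal: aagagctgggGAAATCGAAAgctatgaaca
Ifi203: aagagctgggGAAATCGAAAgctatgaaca
Ifi211: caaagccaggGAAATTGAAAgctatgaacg
Ifi205: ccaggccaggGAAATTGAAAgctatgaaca
Ifi207: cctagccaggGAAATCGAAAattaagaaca
Ifi213: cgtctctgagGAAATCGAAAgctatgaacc
Ifi214: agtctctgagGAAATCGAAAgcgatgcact
Mndal and Ifi203 have 2 windows each, of which the one with the match shared by both genes is shown. The other Ifi203 window held no match, and the other Mndal window held a different one, at -54. The shared match began at position -36 from the start of Mndal (window chr1:173880138-173880437, minus strand) and at -35 from that of Ifi203 (chr1:173942443-173942742, minus strand). The lines of Ifi211 (chr1:173912997-173913296), Ifi205 (chr1:174031706-174032005), Ifi207 (chr1:173741760-173742059), Ifi213 (chr1:173599223-173599522) and Ifi214 (chr1:173535908-173536207) are from minus-strand windows too. The windows of Mndal and Ifi203 were identical at 94.3% of 299 aligned positions. A match stood in at least 1 window of 9 of the 12 family genes, against 3.99% of the 27025 genes with one. Other family windows were near copies too, such as those of Ifi213 and Ifi208 (98.9% identical) and of Ifi211 and Ifi205 (93.1%). The 9 genes are therefore not independent cases, and no enrichment is read from their number.

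Ifi202b is shown whole because its signal differed most between groups and its window (chr1:173982795-173983094, minus strand) held no such match.
Ifi202b: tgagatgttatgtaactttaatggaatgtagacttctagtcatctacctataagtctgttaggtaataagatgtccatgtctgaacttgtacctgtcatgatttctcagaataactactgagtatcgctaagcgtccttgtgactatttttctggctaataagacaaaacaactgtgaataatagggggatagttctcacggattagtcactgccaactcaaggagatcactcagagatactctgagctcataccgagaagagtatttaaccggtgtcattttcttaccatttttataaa
It held 1 copy of TTCNNNGAA, the interferon-gamma activated site pattern, at position -148 from the start; 1 of the 12 family genes and 9.55% of all genes had that pattern. Aim2 and Ifi209 had no ISRE match. The Ifi209 window (chr1:173630609-173630908, plus strand) was 95.7% identical to that of Ifi214, and its stretch aligned to the Ifi214 match differed from it by G1T, counted from 1 at the match's 5′ end, with the aligned positions in capitals.
Ifi209: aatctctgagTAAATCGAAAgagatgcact
A match describes letters in the reference strain and does not show binding, and no match says only that these letters are not in the window.

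Ifi202b gave bright signals in cells with a deleted Dicer1 allele and signals near zero in wild type. On its single-symbol probe set (1421551_s_at) it read 372, 307 and 314 in null cells and 242, 269 and 274 in heterozygous cells, against 0.733, 0.952 and 0.755 in wild-type cells. All 6 arrays of cells with a deleted allele were high and all 3 wild-type arrays were near the bottom of the scale, with no overlap. Ranked against all probe sets of its array, Ifi202b stood at percentiles of 89.1 to 90.4 in null and 87.0 to 87.9 in heterozygous cells, against 4.55 to 6.20 in wild type. The second Ifi202b probe set (1457666_s_at), shared with the predicted locus LOC100044068, read 1104, 1018 and 830 in null and 769, 810 and 962 in heterozygous cells, against 0.540, 0.968 and 0.284 in wild-type cells. Differences between the smallest of these signals carry no order, and no detection calls were used here, so no fold is given against wild type. On the scale used throughout, log2(signal + 12), where 12 is an added constant that damps the noise of dim signals, the mean was higher by 4.74 in null and by 4.41 in heterozygous cells than in wild type, and by 6.30 and 6.09 on the shared probe set. The added constant sets the size of these differences: with log2(signal + 1) those of the single-symbol probe set were 7.51 and 7.18, and with log2(signal + 32) they were 3.46 and 3.16. In bulk RNA, more cells with the transcript and more transcript per cell cannot be told apart.

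Between null and heterozygous cells Ifi202b differed far less than either did from wild type. The mean was 331 ± 35.7 in null and 262 ± 17.2 in heterozygous cells (SD, n = 3), a log2 difference of 0.32 (SE 0.12), and the 3 null values lay above the 3 heterozygous values. On the shared probe set the means were 984 ± 141 and 847 ± 101, a log2 difference of 0.21 (SE 0.12), and the groups overlapped. Without wild-type replicate 2, the other wild-type arrays read 0.733 and 0.755 on the single-symbol probe set and 0.540 and 0.284 on the shared one.

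**Figure D1:**
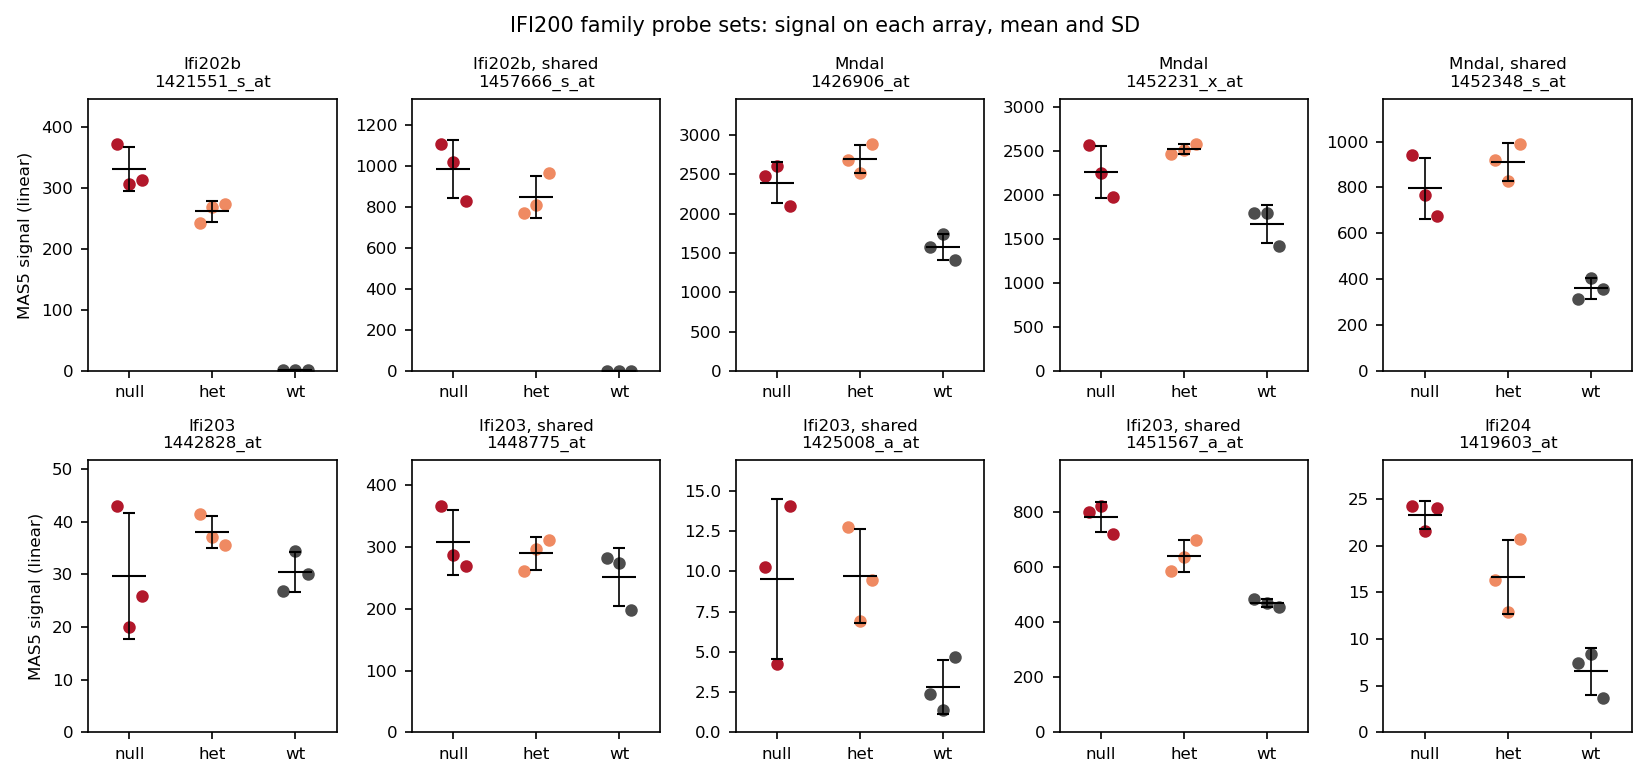
MAS5 signal (linear axis from 0) of the 10 IFI200 family probe sets on each array, with null, heterozygous (het) and wild-type (wt) arrays from left to right; points are arrays, and bars the mean and SD of 3. Both Ifi202b probe sets are near 0 on the wild-type arrays, the Mndal probe sets are raised in null and heterozygous arrays, and the Ifi203 probe sets differ among themselves.

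Mndal, which encodes a myeloid nuclear antigen of the family, was bright in all groups and higher in cells with a deleted allele. Its brighter probe set (1426906_at) read 2471, 2600 and 2097 in null and 2680, 2516 and 2881 in heterozygous cells, against 1575, 1740 and 1408 in wild-type cells. The groups with a deletion both lay above wild type, with log2 differences of 0.60 in null and 0.77 in heterozygous cells (SE 0.10). The other Mndal probe set (1452231_x_at) gave 0.44 and 0.60 (SE 0.10), again without overlap. Null and heterozygous cells overlapped on both, with differences of -0.18 and -0.16.

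A further probe set (1452348_s_at) is assigned to Mndal, Ifi204, Ifi205 and Ifi211 together and cannot be given to 1 gene. It read 942, 768 and 677 in null and 920, 826 and 989 in heterozygous cells, against 315, 406 and 359 in wild-type cells. The means were 2.21 times wild type in null and 2.53 times in heterozygous cells, or 1.11 and 1.32 on the log2 scale (SE 0.12). A suffix _s_at or _x_at marks probes that can bind several related transcripts, so in this cluster such a signal can hold more than 1 gene's RNA.

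Ifi204 encodes p204, described in the mouse as a DNA sensor and as a regulator of myeloid growth. Its own probe set (1419603_at) was dim, at 24.3, 21.5 and 24.1 in null and 16.3, 12.9 and 20.7 in heterozygous cells, against 7.48, 8.41 and 3.69 in wild-type cells. The 3 groups did not overlap, with null highest and wild type lowest. The log2 differences from wild type were 0.94 in null and 0.63 in heterozygous cells (SE 0.19), and 0.31 separated null from heterozygous. At such signals the added constant sets the size: with log2(signal + 1) the differences from wild type were 1.75 and 1.27, and with log2(signal + 32) they were 0.52 and 0.34.

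Ifi203, a nuclear family member, gave different pictures on its 4 probe sets. The only one with its symbol alone (1442828_at) read 43.0, 20.1 and 25.9 in null and 41.5, 37.1 and 35.6 in heterozygous cells, against 26.9, 34.4 and 30.1 in wild-type cells. Null and wild type overlapped, with a log2 difference of -0.06 (SE 0.19), and the heterozygous values lay above the wild-type values by 0.24. The brightest shared one (1451567_a_at), assigned also to the pseudogene Ifi203-ps and to predicted loci, read 800, 822 and 719 in null and 584, 638 and 698 in heterozygous cells, against 484, 470 and 453 in wild-type cells. Here the 3 groups were ordered without overlap, at 0.72 in null and 0.44 in heterozygous cells above wild type (SE 0.09). The shared 1448775_at overlapped in all comparisons, with differences of 0.28 and 0.21 (SE 0.14). The shared 1425008_a_at fell below the filter on dim probe sets and averaged 9.52 ± 4.97 in null, 9.73 ± 2.93 in heterozygous and 2.82 ± 1.69 in wild-type cells (SD, n = 3). No single direction can therefore be given for Ifi203.

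Of the 9 member probe sets that passed the filter, 7 had null values wholly above wild type and 8 had heterozygous values wholly above wild type, and 0 lay wholly below in either. Over all probe sets tested 11.5% lay wholly above wild type in null and 7.84% in heterozygous cells. The members were chosen for this contrast, so the counts are a description. Both Ifi202b probe sets and that of Ifi204 were below the filter signal of 9.01 on every wild-type array. They passed only through the other arrays, which favours such an outcome. Both comparisons share the same 3 wild-type arrays. The replicates of the Mndal probe set 1452231_x_at had a coefficient of variation of 13.1% in null, 2.20% in heterozygous and 12.8% in wild-type cells.

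The other genes of the family were covered by 7 probe sets, 4 of which were tested. They are what the choice of members by signal left over, so their counts depend in part on that choice. Ifi209, a DNA-binding family gene that lies before the members on the chromosome, fell in null cells. It read 498, 356 and 311 in null cells and 570, 678 and 540 in heterozygous cells, against 1030, 674 and 910 in wild-type cells (1435330_at). All null values lay below the other 6, while heterozygous and wild-type values overlapped. Null against wild type, it fell by 1.15 in log2 units (SE 0.17), with an adjusted p of 0.000716 in limma. Null against heterozygous, it fell by 0.62 (adjusted p = 0.0331). That second call did not pass without heterozygous replicate 1 (0.0888) or 2 (0.134) or without null replicate 2 (0.0939) or 3 (0.138). On its other probe set (1435331_at) it fell by 1.04 (SE 0.15, adjusted p = 0.000474) and fell by 0.91 (adjusted p = 0.00174) in the same comparisons. Heterozygous against wild type gave -0.52 and -0.13 (adjusted p = 0.209 and 0.798). The fall in null against wild type held without each array in turn, at -1.33 to -1.01 on the brighter probe set.

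The remaining family genes did not pass the test. Aim2, which assembles an inflammasome on cytosolic DNA, averaged 71.2 ± 7.82 in null, 72.9 ± 4.75 in heterozygous and 67.6 ± 23.3 in wild-type cells (SD, n = 3), with adjusted p values of 0.783 and 0.841 against wild type. The probe set shared by Ifi205 and Ifi211 (1452349_x_at) averaged 620 ± 149, 631 ± 82.6 and 456 ± 67.9 in the same order, at 0.42 in null (adjusted p = 0.0922) and 0.46 in heterozygous cells (adjusted p = 0.221). Its null (534 to 793) and heterozygous values (548 to 713) nevertheless lay wholly above wild type (403 to 533), as on most member probe sets. The probe sets of Ifi213 and Ifi207 were below the filter, with signals of at most 15.3. Of the 4 tested, 0 rose and 2, both of the single gene Ifi209, fell in null against wild type, and likewise in null against heterozygous. In heterozygous against wild type limma called 0, and 2 had an unadjusted p under 0.05, beside 3152 of all probe sets. Over all 27022 probe sets, 5.05% rose and 6.18% fell in null against wild type, 4.41% and 4.75% in null against heterozygous, and 0.5% and 0.525% in heterozygous against wild type.

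**Figure D2:**
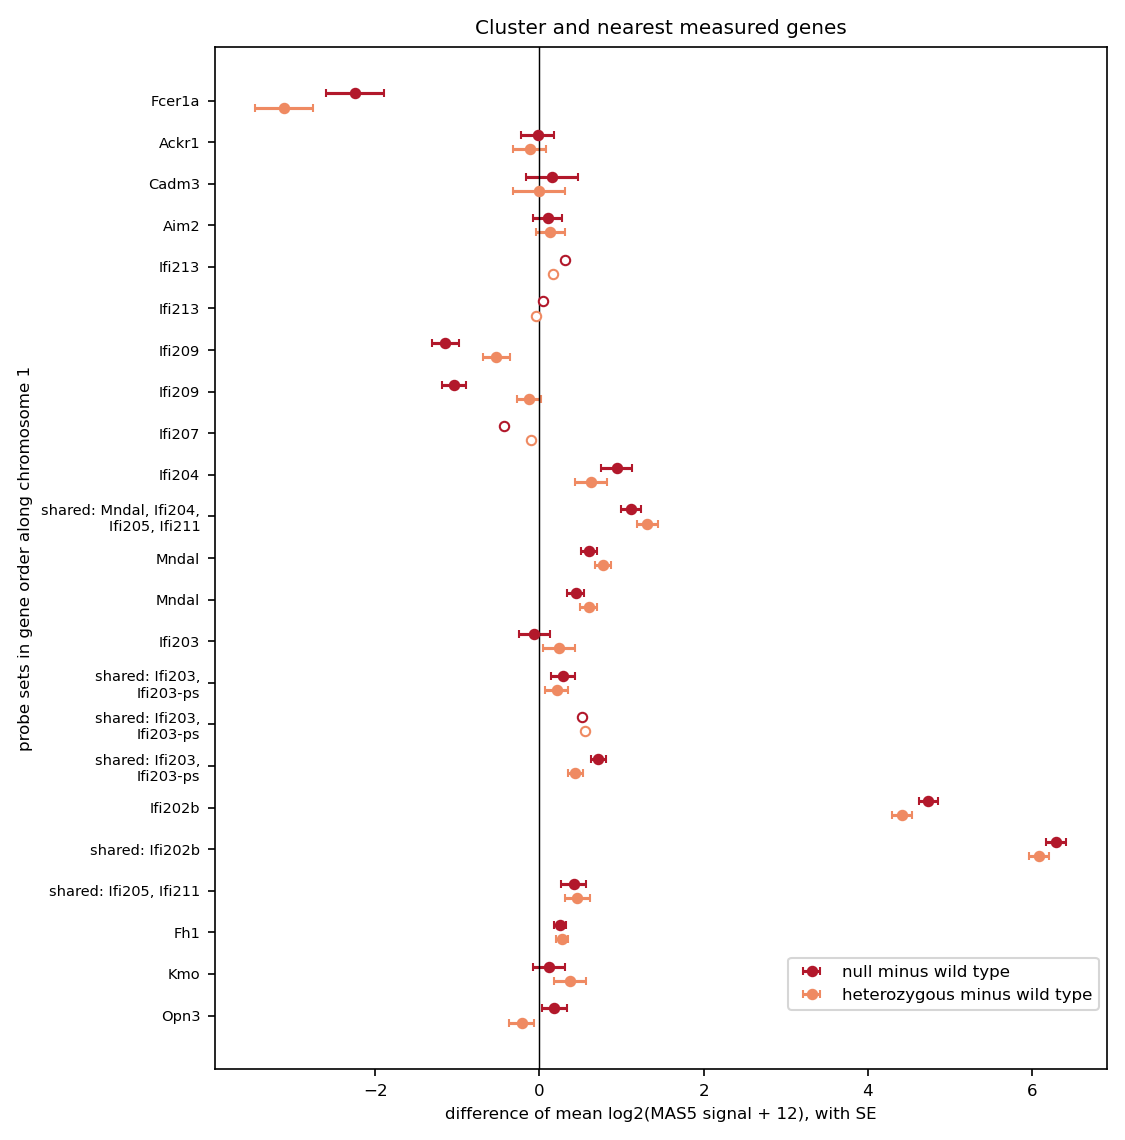
Difference of mean log2(signal + 12) from wild type, with SE from the fit, for null and heterozygous cells; rows follow the order of genes along chromosome 1 from Fcer1a to Opn3, and open points are probe sets below the filter. The 2 Ifi202b probe sets lie between 4.41 and 6.30, Ifi209 lies below 0 and farther so in null cells, and Aim2, Cadm3 and Ackr1 lie near 0.

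Position was examined with the gene order of RefSeq (GRCm38.p6). Among the 40 nearest measured genes, 20 on each side, 3 rose and 3 fell in null against wild type and 1 rose and 1 fell in heterozygous against wild type, each gene represented by its brightest probe set. Over all 12349 genes 6.6% rose and 6.92% fell in null and 0.551% rose and 0.615% fell in heterozygous cells. The 20 before the members include the family genes Ifi209 and Aim2 described above, and Ifi209 is 1 of the 3 that fell in null. With 6 and 2 calls among 40 genes no share is read from them. The median log2 difference of the 40 was 0.05 in null and -0.02 in heterozygous cells, beside -0.04 and -0.01 over all genes.

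Fcer1a, which encodes the IgE receptor chain of mast cells and basophils, stood 5 measured genes before the members. It read 28.6, 42.6 and 30.6 in null and 16.9, 8.26 and 15.1 in heterozygous cells, against 106, 453 and 172 in wild-type cells. In null cells it fell by 2.25 (SE 0.35, adjusted p = 0.00115), and in heterozygous cells it fell by 3.11 (adjusted p = 0.000277). The value of 453 came from wild-type replicate 2, without which the differences were -1.70 and -2.55. It was the only 1 of the 6 tested mast cell and basophil markers to change in either comparison. Ms4a2, the partner chain of the same receptor, averaged 809 in null, 670 in heterozygous and 696 in wild-type cells, and Cpa3, a mast cell protease, 2329, 1561 and 1934. The summed signal of the 9 measured markers was 5175 to 7272 in null, 3983 to 4669 in heterozygous and 4446 to 6676 in wild-type samples. The genes between Fcer1a and Ifi209, namely Ackr1, Cadm3 and Aim2, gave -0.02, 0.15 and 0.10 in null, and none passed.

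On the other side Fh1, Kmo and Opn3 came first. Fh1, the mitochondrial fumarase, rose by 0.25 in null with an adjusted p of 0.0488, and did not pass in 13 of 19 alternatives (adjusted p up to 0.186, without wild-type replicate 3, and 0.0924 without wild-type replicate 2). Hmga2-ps1, a pseudogene copy of the chromatin gene Hmga2, stood 9 measured genes after the members and read 89.6, 67.4 and 72.6 in null and 104, 77.1 and 95.0 in heterozygous cells, against 34.7, 23.7 and 37.9 in wild-type cells. It rose by 1.01 in null (SE 0.16, adjusted p = 0.00148) and by 1.25 in heterozygous cells (adjusted p = 0.000983), and whether its probes also bind Hmga2 RNA was not tested. Cep170, a centrosome gene, rose in null by 0.68 (adjusted p = 0.0249; 0.0767 without wild-type replicate 2, 0.0604 without null replicate 1, 0.0959 without null replicate 3, 0.0547 with no filter and 0.08 with no intensity trend). Smyd3, a methyltransferase gene, fell by 0.51 (adjusted p = 0.022; 0.0897 without wild-type replicate 2, 0.0603 without wild-type replicate 1, 0.0762 without null replicate 1, 0.053 with cyclic loess and 0.0513 with quantile normalization). The 6 calls became 3 without null replicate 1 or without wild-type replicate 2.

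Genes whose levels ran most like those of each member over the 9 arrays were found by Pearson's r on log2 signals among 2552 genes that varied by at least 1 on that scale. Such an r mostly repeats the split between groups and is given as a description. For Ifi202b they were Igf2bp3, an RNA-binding protein (r = 0.992), Paip1, a translation factor (0.985), Tmem87a (0.984), Cap1, an actin regulator (0.975) and Vps39, a vesicle tethering protein (0.975). They lie on chromosomes 6, 13, 2, 4 and 2, and none lies on chromosome 1. Igf2bp3 averaged 322 in null, 238 in heterozygous and 22.8 in wild-type cells, and Paip1 630, 550 and 189. All 5 had null and heterozygous values wholly above wild type.

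For Mndal the nearest were Thg1l (r = 0.969), the securin gene Pttg1 (0.965), Gdpd3 (0.951), 1500011B03Rik (0.945) and Depdc7 (0.945), with Gdpd3 at means of 275 in null, 387 in heterozygous and 41.8 in wild-type cells. For Ifi204 they were Oas1a, an interferon-induced antiviral enzyme (r = 0.974), Hbb-b2 (0.939), Igf2bp3 (0.936), Clvs1 (0.935) and Tmed8 (0.923). Oas1a averaged 288 ± 34.1 in null, 199 ± 35.6 in heterozygous and 124 ± 20.7 in wild-type cells (SD, n = 3). Each of the genes nearest Ifi204, not Oas1a alone, shared with it the order null, heterozygous, wild type without overlap. Igf2bp3 is among the nearest of both Ifi202b and Ifi204. For the dim Ifi203 probe set the nearest were Fmo2 (0.920), Ctrc (0.871), 4930432K21Rik (0.861), Krt78 (0.855) and Rnd3 (0.848), of which 4 had means of at most 23.6 in each group. In the order named, the genes nearest Mndal lie on chromosomes 11, 11, 7, 5 and 2. Those nearest Ifi204 lie on 5, 7, 6, 4 and 12, and those nearest Ifi203 on 1, 4, 8, 15 and 2.

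**Figure D3:**
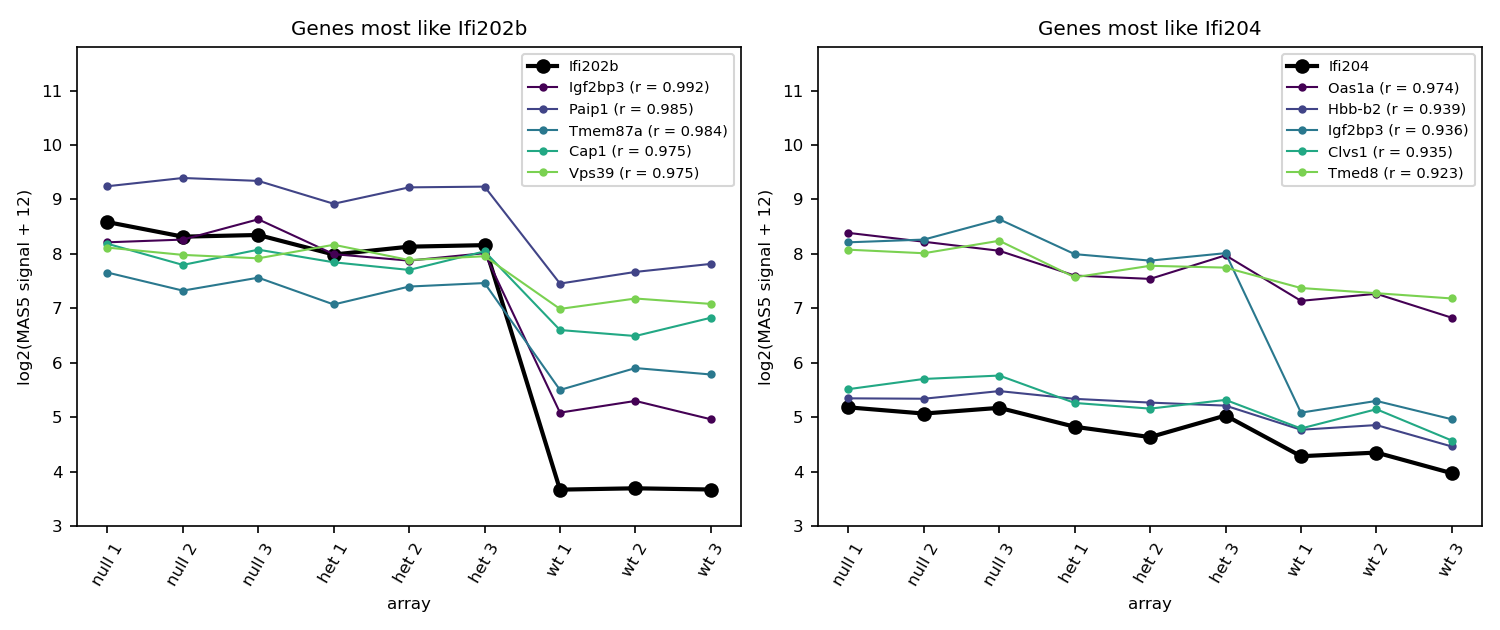
log2(signal + 12) on each array for Ifi202b (left, black) and Ifi204 (right, black) with the 5 genes of highest Pearson r over 9 arrays; arrays run null, heterozygous, wild type, and lines only link 1 gene's points. Ifi202b and its 5 nearest genes drop together at the wild-type arrays, and Ifi204 and its 5 nearest genes step down from null through heterozygous to wild type. Igf2bp3 is in both panels.

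Part of the interferon-induced genes outside the family rose in null cells. Of 30 tested, 10 rose and 0 fell against wild type, where 6.6% of all genes rose and 6.92% fell. The median log2 difference was 0.48, beside -0.04 over all genes. Oas1a rose by 1.14 (SE 0.14, adjusted p = 0.000235), Cmpk2, a mitochondrial nucleotide kinase, by 0.75 (adjusted p = 0.000261), Rsad2, the antiviral enzyme viperin, by 1.11 (adjusted p = 0.00192) and Gbp3, a guanylate-binding protein, by 0.81 (adjusted p = 0.00271). In heterozygous cells 2 rose and 0 fell, where 0.551% of all genes rose and 0.615% fell, with a median of 0.12 beside -0.01 over all genes. They were Ifi27 (0.90, adjusted p = 0.0156) and Trim30a (0.42, adjusted p = 0.0451). Each lost its call when wild-type replicate 2 (0.0598 and 0.141) or wild-type replicate 3 (0.06 and 0.0514) was left out, and without heterozygous replicate 2 (0.0743 and 0.184) or heterozygous replicate 3 (0.0942 and 0.194). Trim30a also lost it without wild-type replicate 1 (0.133) and without null replicates 1, 2 and 3 (0.0507, 0.0579 and 0.0573). In heterozygous cells Oas1a gave 0.63 (adjusted p = 0.0588), and passed without wild-type replicate 2 (0.72, adjusted p = 0.0482). It also passed with array weights (0.0438) and with the filter at the 60th percentile (0.0496). Of the 30 genes, 9 had an unadjusted p under 0.05 in limma in heterozygous against wild type, beside 3152 of all 27022 probe sets.

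Upstream of these genes, 1 of 18 tested receptors and signalling factors of the interferon pathway rose in null cells and 0 fell, beside the 6.6% and 6.92% of all genes. The count hangs on the threshold: Ifngr2, Jak1 and Irf1, at 0.51, 0.32 and 0.31, had adjusted p values of 0.0502, 0.052 and 0.0527, and 4 genes passed with array weights and 5 with the filter at the 60th percentile. Irf9, a transcription factor of the interferon response, read 233, 169 and 197 in null and 165, 154 and 188 in heterozygous cells, against 117, 119 and 124 in wild-type cells. It rose by 0.67 in null (SE 0.12, adjusted p = 0.00343), and heterozygous against wild type gave 0.45 (adjusted p = 0.122). The list's median was 0.19 in null and 0.15 in heterozygous cells. In heterozygous cells limma called 0, and 2 had an unadjusted p under 0.05, beside 3152 of all 27022 probe sets. Interferon genes themselves were dim, with Ifnb1 at 10.1 in null, 14.4 in heterozygous and 8.23 in wild-type cells and Ifna4 and Ifng below the filter.

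Of 34 tested genes of DNA sensing and inflammasomes, pathways in which the family is described, 2 rose and 3 fell in null cells, with a median of -0.11. Such counts are near the shares of 6.6% and 6.92% over all genes and are no result about the list. Sting1, the adaptor downstream of DNA sensing, read 127, 118 and 107 in null and 191, 214 and 176 in heterozygous cells, against 183, 201.8 and 186 in wild-type cells, and fell by 0.64 (SE 0.11, adjusted p = 0.00215). Pycard, the inflammasome adaptor ASC, fell by 0.35 (adjusted p = 0.0211; 0.089 without null replicate 3, 0.0661 without wild-type replicate 1, 0.0735 without wild-type replicate 3 and 0.0946 with no intensity trend). Mefv, which encodes pyrin, fell by 0.51 (adjusted p = 0.0213). Lrrfip1, a nucleic acid binding protein, rose by 0.65 (adjusted p = 0.00232) and Casp4, the caspase that senses endotoxin in mice as caspase-11, by 0.59 (adjusted p = 0.00845). Casp1 gave 0.20 and the DNA sensor gene Cgas -0.05, neither past the test. In heterozygous cells limma called 0 of the 34, and the median was 0.00. There 3 of the 34 had an unadjusted p under 0.05, beside 3152 of all 27022 probe sets. The 5 calls in null were 3 without null replicate 3 or without wild-type replicate 3.

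The last list held proteins described as binding or being regulated by p202 or p204, such as retinoblastoma and AP-1 proteins. Of 19 tested, 3 rose and 2 fell in null cells, with a median of -0.10, beside 6.6% and 6.92% of all genes. In heterozygous cells 0 rose and 2 fell, with a median of -0.05, beside 0.551% and 0.615% of all genes. The AP-1 genes Jun and Fos fell in both, by 3.68 and 2.65 in null (adjusted p = 1.26e-06 and 1.79e-05) and by 3.33 and 2.47 in heterozygous cells (adjusted p = 7.24e-06 and 9.38e-05). The cell cycle inhibitor Cdkn1a rose in null by 1.67 (adjusted p = 8.11e-06) and the differentiation inhibitor Id2 by 0.69 (adjusted p = 0.00319). Cdkn1b, another cell cycle inhibitor, rose by 0.43 (adjusted p = 0.0108).

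**Figure D4:**
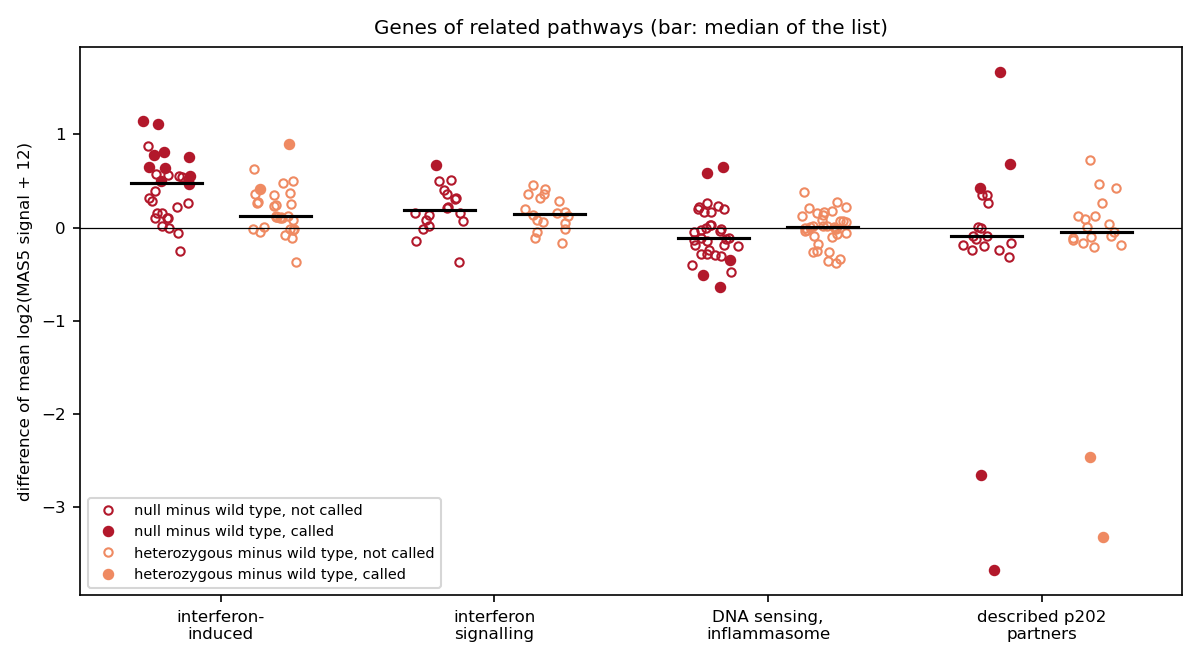
Difference of mean log2(signal + 12) from wild type for each tested gene of 4 lists, null cells left and heterozygous cells right within a list; filled points passed limma at an adjusted p under 0.05 and bars are list medians. The interferon-induced list has a median of 0.48 in null and 0.12 in heterozygous cells, and the DNA sensing list one of -0.11 and 0.00.

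Mndal and Ifi204 are also transcribed in monocytes, so markers of those cells are given. Of 15 listed monocyte and macrophage genes 13 were measured, and all 13 passed the filter. In null cells 3 rose and 1 fell, with a median of 0.16, beside 6.6% and 6.92% of all genes. In heterozygous cells 0 rose and 1 fell, with a median of 0.02, beside 0.551% and 0.615% of all genes. Their summed signal was 17422 to 21999 in null, 17292 to 18430 in heterozygous and 13733 to 18952 in wild-type samples. The lysozyme genes Lyz1 and Lyz2 rose in null cells and averaged 5827 and 2744 in null, 4571 and 1548 in heterozygous and 4287 and 1541 in wild-type cells. Cd14, an endotoxin co-receptor, rose in null and fell in heterozygous cells, at 88.5 in null, 12.3 in heterozygous and 33.6 in wild-type cells. Cd68, a lysosomal protein of macrophages, fell in null cells. The means of Lyz1, Lyz2, Ccr2 and Csf1r ran from null through heterozygous to wild type, as did those of Ifi202b and Ifi204. The other measured markers had other orders. F13a1, Ms4a6c, Ctss and Cd68 were highest in wild type and Klf4 and Adgre1 in heterozygous cells. Cd14, Cx3cr1 and S100a4 were lowest in heterozygous cells. Ccr2, a chemokine receptor, averaged 1913 in null, 1766 in heterozygous and 1205 in wild-type cells, and did not pass. Its wild-type arrays read 1389, 640 and 1587, with 640 on wild-type replicate 2. Csf1r, the receptor for macrophage growth factor, averaged 1991, 1882 and 1696 in the same order, without passing the test. The late neutrophil markers Ltf and Ngp split the arrays as Ifi202b did, in the opposite direction. The rest of that list was mixed. Null and wild-type values overlapped for Camp, Lcn2, S100a8, S100a9, Mmp9 and Cxcr2. Mmp8 lay below wild type in null and in heterozygous cells without passing. Of 9 late neutrophil markers tested, 0 rose and 2 fell in null and 0 rose and 3 fell in heterozygous cells, beside 6.92% and 0.615% of all genes that fell. The list's median was -0.29 in null and -1.07 in heterozygous cells. The granule protein gene Ltf averaged 17.2 in null, 20.04 in heterozygous and 118 in wild-type cells, and Ngp, another, 98.0, 116 and 476, each with all wild-type values above the other 6. Ltf fell by 2.09 in null and fell by 1.97 in heterozygous cells (adjusted p = 0.000119 and 0.000552), and Ngp fell by 2.12 and fell by 1.86 (adjusted p = 0.00169 and 0.0187). On wild-type replicate 2 Ltf read 174 and Ngp 784. The other wild-type arrays read 103 and 76.5 for Ltf and 328 and 316 for Ngp. These differences are not given without wild-type replicate 2. Lcn2 was the other gene that fell in heterozygous cells, and it averaged 160 in null, 27.5 in heterozygous and 122 in wild-type cells. The summed signal of the 9 was 2448 to 8848 in null, 2791 to 5064 in heterozygous and 4024 to 7494 in wild-type samples. Of B lymphoid markers 9 were measured and 5 tested. Cd79a, Ebf1 and Pax5 were among those below the filter, with group means of at most 7.14. Of the 5 tested, 0 rose and 1 fell in null against wild type, beside 6.6% and 6.92% of all genes. In heterozygous cells 0 rose and 0 fell, beside 0.551% and 0.615%. The sum over the 9, tested or not, was 563 to 663 in null, 1094 to 1193 in heterozygous and 1226 to 1446 in wild-type samples. The part of these cells in the family's signals was not tested.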

How the data were processed

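RNA of EYFP-positive GMPs was measured on 9 Affymetrix arrays. The authors deposited MAS5 signal intensities, 1 linear value per probe set and array (MAS5 per the submitters' processing notes; its version and settings are not given in the sources used here). The deposited intensity values have a 2% trimmed mean of 100 on every array; a shift common to most transcripts is therefore hidden. Arrays have no read depth, and their number limits the precision.

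Gene names came from the platform annotation, which gave 1 symbol to 34958 probe sets and several to 932; Entrez identifiers of 34754 of those with 1 symbol matched RefSeq (GRCm38.p6). The 64 control probe sets were left out. Signals were taken as log2(signal + 12). Probe sets whose mean signal reached the 40th percentile (9.01) were tested, 27022 in all, with limma 3.58.1 in R 4.3.3 (lmFit, eBayes with an intensity trend, all 9 arrays and 3 groups in 1 fit, residual degrees of freedom 6, prior 7.98). All tests were two-sided, with Benjamini-Hochberg adjustment over all probe sets tested and calls at an adjusted p under 0.05. With 3 arrays a group, the smallest p of an exact permutation test is 0.1. Gene lists and positions used the brightest single-symbol probe set per gene. Named are all family probe sets, the 3 nearest and all called neighbours, up to 4 called genes per list and comparison by smallest p, and the 5 genes most like each member; other genes were named after their values were seen. The members and lists were chosen with earlier results of these data known.

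Same-numbered replicates did not deviate together (correlations of -0.0296 to 0.175 over 9 pairs), so the replicate number was not taken as pairing. Alternatives changed the pseudocount, filter, normalization, arrays in the fit, variance prior, array weights, how a gene's probe sets are combined and the replicate block, and left out each array.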

Additional observations from a re-analysis of the deposited data

How the results depend on the processing

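The differences of the 4 members and, against wild type, of the other family genes kept their direction under every alternative run, except those of the single-symbol Ifi203 probe set in null against wild type (-0.28 to 0.11 over all alternatives) and the shared 1448775_at in null against heterozygous (-0.05 to 0.16), and of Aim2 in null (-0.05 to 0.33) and heterozygous cells (-0.02 to 0.36) against wild type. The pseudocount set the size for dim signals. With log2(signal + 1) Ifi202b was 7.51 in null and 7.18 in heterozygous cells above wild type, and Ifi204 1.75 and 1.27; with log2(signal + 32) Ifi202b was 3.46 and 3.16, and Ifi204 0.52 and 0.34. Leaving out each array gave, for null and heterozygous against wild type, 4.65 to 4.79 and 4.38 to 4.47 for Ifi202b, 0.52 to 0.69 and 0.70 to 0.85 for Mndal, -0.28 to 0.11 and 0.18 to 0.31 for Ifi203, and 0.82 to 1.01 and 0.51 to 0.73 for Ifi204.

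Of all probe sets, 3036 passed for null and 277 for heterozygous cells when each was set against wild type, and 2475 for null against heterozygous. Without an intensity trend these were 1797, 138 and 1153, with no filter 181 in heterozygous against wild type, and leaving out an array gave 1835 to 3047, 147 to 284 and 1238 to 2619. With the replicate number as a block they were 3455, 334 and 2770, the interferon signalling list had 2 calls in null cells in place of 1, Fh1 did not pass (adjusted p = 0.0501), and the probe set shared by Ifi205 and Ifi211 passed in null cells (adjusted p = 0.0322). Of the 2 Ifi209 calls in null against heterozygous, 1 was left with no filter or no trend, and 1 to 2 without an array. Leaving out an array gave 2 to 2 and 0 to 0 other family calls in null and heterozygous against wild type, 3 to 6 and 2 to 2 flanking calls, 3 to 6 and 0 to 0 for DNA sensing, 1 to 2 and 0 to 0 for interferon signalling, 7 to 11 and 0 to 2 for interferon-induced genes, and 5 to 5 and 2 to 2 for the described partners. Interferon signalling in null cells had 4 calls with array weights, 5 with the filter at the 60th percentile, and 2 each with cyclic loess, log2(signal + 32), the mean over probe sets and quantile normalization. DNA sensing had 3 without a trend. Interferon-induced genes in heterozygous cells had 1 with log2(signal + 1), no filter or only the groups compared, and 0 without a trend. Their highest count among the alternatives was 3. The causes were not tested.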
